A study of Arabidopsis thaliana with 6 samples.

Results

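The phloem cap was compared directly with the pith of the Arabidopsis thaliana inflorescence stem, using 4 of the 6 RNA-seq libraries of the series, and all 37051 genes of the count table entered the comparison. Each tissue was represented by 2 libraries of tissue cut by laser capture microdissection from frozen sections of the second internode of Col-0 wild-type plants, which had grown on soil in short days and were then moved to long days to flower. Neither tissue carried a transgene. The phloem cap and the central pith were cut first and the rest of the bundle afterwards, and the labels do not say which phloem cap and pith libraries came from the same stems. The other 2 libraries, from the vascular bundle without its phloem cap, are used here for levels only. RNA was amplified in consecutive rounds before sequencing, so reads are not independent molecules. The labels do not say whether the libraries of a tissue came from separate plants, and p-values therefore measure the spread between these libraries.

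The phloem cap is the group of cells on the outer face of each vascular bundle, between the phloem and the starch sheath. In Arabidopsis it contains sulfur-rich cells that store glucosinolates, the sulfur-containing defence compounds of the mustard family. The pith is the large-celled parenchyma in the centre of the stem, whose cells become highly vacuolated and eventually die. On wounding, glucosinolates are broken down by myrosinases, enzymes that remove their glucose.

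Libraries held 19324189 and 20561229 counts for the phloem cap, and 20480573 and 21708240 counts for the pith. Of the 37051 genes, 18201 passed the filter on low counts and were tested with the quasi-likelihood test of edgeR. A gene was called when its Benjamini-Hochberg adjusted p was below 0.01 and its fold change above 2. Of the genes tested, 1517 (8.33%) were called higher in the phloem cap and 790 (4.34%) higher in the pith, so that 12.7% were called in either direction. When libraries were scaled by their totals instead, all log2 fold changes shifted by a median of 0.34 towards the phloem cap, and the share of calls higher in the phloem cap went from 65.8% to 77.1% (1975 against 585 genes). The calls also differed in size. The median fold change was 36.9 among genes called higher in the phloem cap and 7.53 among those called higher in the pith, and 80.3% and 39.5% of them exceeded 10-fold. No read was counted in either pith library for 133 genes called higher in the phloem cap, and in either phloem cap library for 27 genes called higher in the pith. In bulk tissue, fewer cells of a type and less RNA per cell cannot be told apart. Levels are given as counts per 1000000 (CPM) for each library, normalised by the TMM method, with replicate 1 before replicate 2. Log2 fold changes are phloem cap minus pith, with their SE and n = 2 libraries per tissue. Levels of different genes are compared per length as transcripts per 1000000 (TPM), given as the mean of both libraries where no replicate is named. Genes given with a log2 fold change or a bound and no adjusted p were called, unless the value is named a log2 difference.

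Counting ignored strand, so reads from overlapping or antisense genes cannot be told apart. Of the called genes 330 on the phloem cap side and 193 on the pith side overlap another counted gene, and among those named here these are ACA10, APR1, AST56, AT4G16190, BCAT4, BZIP9, CNGC12, CT-BMY, DND1, FLP, GAMMA-VPE, GSTF10, GTR1, GTR2, LHT7, MC1, MIPS3, NAC1, NRAMP1, NRT1.5, PP2-A1, RPP5, STP7, SULTR4;2, TMT1, WRKY33, ZIP1 and scpl48.

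Genes that the study used as markers followed the labels. All 5 phloem cap markers were called higher in the phloem cap, among them MIPS3, a myo-inositol-1-phosphate synthase, with 45.4 and 45.9 CPM in the phloem cap against 0.0545 and 0.157 CPM in the pith (log2 fold change 8.66 ± 0.60, adjusted p = 0.000220), and LHT7, of the lysine and histidine transporter group, with 81.6 and 30.02 CPM in the phloem cap against 3.11 and 0.575 CPM in the pith (adjusted p = 0.00660, and 0.0111 without phloem cap replicate 1). All 4 pith markers were called higher in the pith. They include NAC074, a NAC transcription factor, with 15.6 and 11.1 CPM in the pith against 0.577 and 0.952 CPM in the phloem cap (log2 fold change -4.11 ± 0.59, adjusted p = 0.00183), and the CLE peptide gene AT5G59305 with 111 and 82.01 CPM in the pith against 0.865 and 5.796 CPM in the phloem cap (adjusted p = 0.00576, and 0.0503 without pith replicate 1 and 0.0412 without pith replicate 2). Of the 9 markers, CYP83A1, CYP83B1, NAC074 and AT2G38380 were known from earlier work, and the study chose the others from these same libraries, so that those are no independent check. Without phloem cap replicate 1, 4 of the phloem cap markers were called, and without either pith library 3 of the pith markers. Markers of neighbouring cells also differed between libraries. Levels summed over the sieve element and companion cell list were 4305 and 2798 TPM in the phloem cap, 46.8 and 68.6 TPM in the pith and 1970 and 1273 TPM in the remaining vascular bundle. The 9 fibre markers summed to 1057 and 3633 TPM in the phloem cap, 342 and 357 TPM in the pith and 6461 and 9350 TPM in the remaining bundle. Pollen markers, which a stem should lack, summed to 1134 and 297 TPM in the phloem cap, 58.6 and 35.04 TPM in the pith and 11.3 and 28.4 TPM in the remaining bundle, and 2 of the 8 pollen markers tested were called higher in the phloem cap. This count was 1 without phloem cap replicate 1, 5 without phloem cap replicate 2 or with library totals, and 0 without either pith library. Phloem cap replicate 2 therefore held more fibre transcripts than replicate 1 and fewer pollen transcripts.

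Aliphatic glucosinolate synthesis was called more completely than any other functional list. All 18 tested genes of aliphatic glucosinolate synthesis, of 20 listed, were called higher in the phloem cap, where 8.33% of all genes tested were. Their median log2 fold change was 4.37, against 0.07 over all genes tested. Aliphatic glucosinolates are made from methionine, whose side chain is first lengthened and then built into the core structure. Promoters are printed for the 5 of these 18 genes whose 250 bases before the gene start hold the AC element ACCTAC, on either strand, a motif bound by MYB transcription factors in other plant pathways. Capitals mark the motif (RefSeq annotation of TAIR10.1, sequences read 5′ to 3′ along the gene).
CYP83A1, chr4:7992430-7992679, minus strand: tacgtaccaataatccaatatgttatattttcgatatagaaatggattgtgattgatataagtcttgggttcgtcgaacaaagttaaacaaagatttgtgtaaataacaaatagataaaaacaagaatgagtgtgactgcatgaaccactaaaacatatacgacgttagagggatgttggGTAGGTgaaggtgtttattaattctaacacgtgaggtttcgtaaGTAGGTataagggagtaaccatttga
IPMI2, chr2:17920397-17920646, plus strand: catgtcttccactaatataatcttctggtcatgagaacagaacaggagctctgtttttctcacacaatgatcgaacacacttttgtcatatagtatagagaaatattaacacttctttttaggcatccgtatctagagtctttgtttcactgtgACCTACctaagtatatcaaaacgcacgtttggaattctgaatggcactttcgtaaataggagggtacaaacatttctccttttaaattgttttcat
BCAT4, chr3:6849583-6849832, minus strand: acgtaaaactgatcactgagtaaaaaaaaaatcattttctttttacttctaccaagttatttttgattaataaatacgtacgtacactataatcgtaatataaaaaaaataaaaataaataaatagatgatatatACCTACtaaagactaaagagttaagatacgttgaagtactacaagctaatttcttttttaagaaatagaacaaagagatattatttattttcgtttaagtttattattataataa
SOT17, chr1:6398281-6398530, plus strand: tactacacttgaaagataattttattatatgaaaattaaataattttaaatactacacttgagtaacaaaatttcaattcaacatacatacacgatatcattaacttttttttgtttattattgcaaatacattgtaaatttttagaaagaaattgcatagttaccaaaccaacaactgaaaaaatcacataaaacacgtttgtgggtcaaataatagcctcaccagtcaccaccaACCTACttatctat
CYP79F2, chr1:5604794-5605043, plus strand: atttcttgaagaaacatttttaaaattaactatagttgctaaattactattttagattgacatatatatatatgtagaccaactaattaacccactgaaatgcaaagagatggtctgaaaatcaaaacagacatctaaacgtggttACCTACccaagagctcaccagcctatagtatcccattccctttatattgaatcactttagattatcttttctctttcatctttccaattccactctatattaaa
This motif was present in 27.8% of the promoters of these 18 genes, in 4.44% of the 18200 promoters of genes tested and in 5.27% of the promoters of genes called higher in the phloem cap. The letters ACGTG, the core of many bZIP and bHLH sites, were found in 44.4% of the 18 promoters and in 23.0% of all, and the full G-box CACGTG, which contains them, in 16.7% and 7.46%. These were 3 of 6 motifs searched. Of the others, W-box letters (TTGACC or TTGACT) were found in 22.2% of the 18 promoters and in 27.3% of all, TATCCA in 16.7% and 14.2%, and the GCC-box GCCGCC in 0 of 18 and in 1.99% of all. A match of letters is a description and not a binding site.

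The printed genes cover successive steps of the pathway, and those other than CYP83A1, like IIL1, were singled out after their values were seen. BCAT4, the aminotransferase that opens methionine chain elongation, had 441 and 442 CPM in the phloem cap against 9.65 and 9.52 CPM in the pith (log2 fold change 5.52 ± 0.39, adjusted p = 0.000220). IPMI2, a subunit of the isopropylmalate isomerase of the elongation cycle, had 708 and 553 CPM in the phloem cap against 35.01 and 21.6 CPM in the pith (log2 fold change 4.48 ± 0.43, adjusted p = 0.000342). CYP83A1, the P450 that oxidises the aldoximes of the core pathway, had 2048 and 2381 CPM in the phloem cap against 169 and 95.03 CPM in the pith (log2 fold change 4.07 ± 0.44, adjusted p = 0.000528). These 3 genes had pith levels far below either phloem cap library. SOT17, a sulfotransferase of the last core step, had 219 and 269.9 CPM in the phloem cap against 2.3997 and 3.400 CPM in the pith (log2 fold change 6.40 ± 0.43, adjusted p = 0.000220). CYP79F2, whose sequence is close to that of its neighbour CYP79F1 and whose unique counts are therefore uncertain, had 4.33 and 9.81 CPM in the phloem cap against 0 and 0.157 CPM in the pith (adjusted p = 0.00442, and 0.0341 without phloem cap replicate 2). For every one of the 18 genes both phloem cap libraries lay above both pith libraries, as they did for 6337 of the 18201 genes tested. The smallest log2 fold change was 2.01 ± 0.37 for IIL1, the large subunit of the isopropylmalate isomerase, which leucine synthesis also uses (adjusted p = 0.00542, and 0.0293 without pith replicate 1 and 0.0774 without pith replicate 2). Leaving out each library in turn left 16 to 18 genes called.

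**Figure D1:**
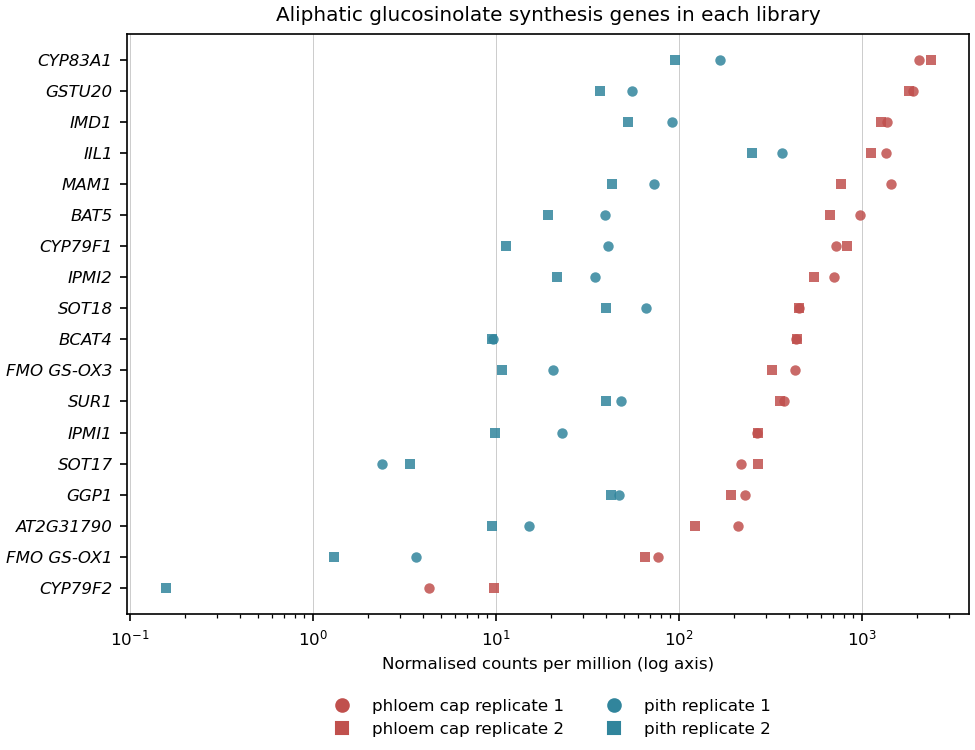
Normalised CPM (log axis) of the 18 tested aliphatic glucosinolate synthesis genes, one point per library, with phloem cap in red and pith in blue and replicates 1 and 2 as circles and squares. For every gene the 2 red points lie to the right of the 2 blue points, and CYP79F2 has no circle in blue because its count in pith replicate 1 was 0.

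By level, GSTU20, a glutathione S-transferase of the core pathway, led the aliphatic genes with 3485 TPM in the phloem cap, 70.03 TPM in the pith and 1204 TPM in the remaining vascular bundle. CYP83A1 came next among the genes named here, with 2635 TPM in the phloem cap, 127 TPM in the pith and 825 TPM in the remaining vascular bundle. For all 18 genes the mean level of the phloem cap exceeded that of the remaining bundle, which was not tested. Of the indole branch, which starts from tryptophan, 7 of 10 tested genes (13 listed) were called higher in the phloem cap and 0 higher in the pith. UGT74B1, the glucosyltransferase of the core, had 934 and 518 CPM in the phloem cap against 50.2 and 58.00 CPM in the pith (log2 fold change 3.75 ± 0.43, adjusted p = 0.000684), and SOT16, its sulfotransferase, had 562 and 367 CPM in the phloem cap against 45.1 and 65.2 CPM in the pith (adjusted p = 0.00120). CYP83B1, the P450 that commits indole aldoximes to the pathway, had 232 and 234 CPM in the phloem cap against 41.2 and 24.5 CPM in the pith (log2 fold change 2.83 ± 0.39, adjusted p = 0.00144). GSTF9, a glutathione S-transferase, had 6431 and 5396 CPM in the phloem cap against 641 and 789.6 CPM in the pith (adjusted p = 0.000889, and 0.0168 without pith replicate 1). Its close relative GSTF10, named after its values were seen, had 1979 and 1565 CPM in the phloem cap against 1930.3 and 1642 CPM in the pith, a log2 difference of -0.01 ± 0.34.

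Genes for glucosinolate breakdown were called in the same direction as those for synthesis, though for a smaller share of members. Whether the same cells express both cannot be told from bulk tissue. Of 8 tested genes (15 listed), 4 were called higher in the phloem cap and 0 higher in the pith. The myrosinase TGG2 had 1323 and 2624 CPM in the phloem cap against 24.4 and 26.2 CPM in the pith (log2 fold change 6.29 ± 0.51, adjusted p = 0.000226), and TGG1, the other myrosinase of the shoot, had 427 and 788 CPM in the phloem cap against 6.38 and 9.26 CPM in the pith (log2 fold change 6.28 ± 0.51). MBP2, a myrosinase-binding protein, had 234 and 172 CPM in the phloem cap against 3.33 and 2.197 CPM in the pith (log2 fold change 6.20 ± 0.45). Sulfate assimilation, which supplies the sulfur, was divided within the list. Of 18 tested genes (19 listed), 7 were called higher in the phloem cap and 0 higher in the pith, with a median log2 fold change of 0.49. The called genes include APK, an adenylylsulfate kinase of the branch that makes the sulfate donor of the sulfotransferases, with 543 and 319.7 CPM in the phloem cap against 36.3 and 36.2 CPM in the pith (log2 fold change 3.57 ± 0.41, adjusted p = 0.000675), and APR1, an adenylylsulfate reductase of the branch towards cysteine, with 743 and 390.4 CPM in the phloem cap against 16.5 and 15.7 CPM in the pith (log2 fold change 5.14 ± 0.47, adjusted p = 0.000306). APS1, an ATP sulfurylase at the head of both branches, had 4307 and 2345 CPM in the phloem cap against 436 and 412 CPM in the pith (adjusted p = 0.00171, and 0.0159 without pith replicate 1 and 0.0159 without pith replicate 2). Without pith replicate 1, 4 members were called. Genes for the later steps, from serine acetyltransferases to glutathione synthesis, did not pass the test in either direction, and GSH1, the first enzyme of glutathione synthesis and named after its values were seen, had 577 and 425 CPM in the phloem cap against 1083 and 1232 CPM in the pith (adjusted p = 0.0338).

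**Figure D2:**
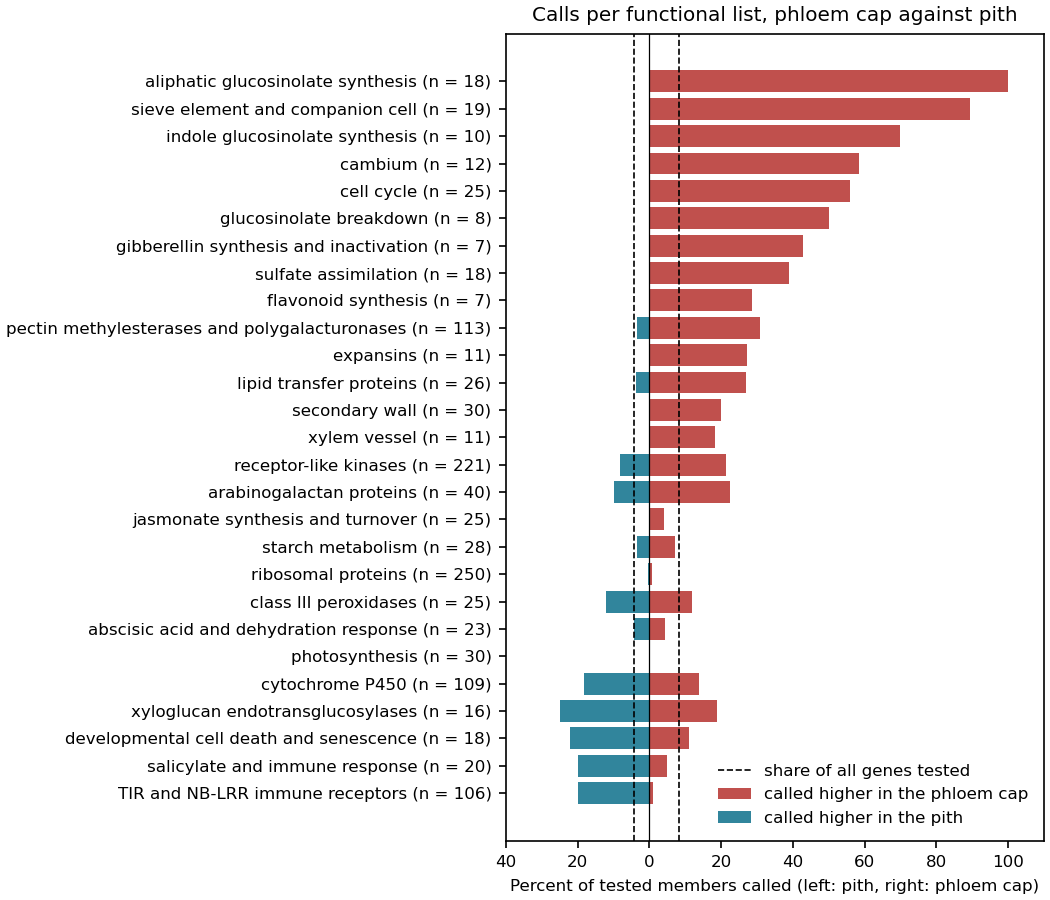
Percent of the tested members of each functional list called higher in the pith (bars to the left) and higher in the phloem cap (bars to the right), with the number of members tested in parentheses. Dashed lines mark the shares of all genes tested, 4.34% and 8.33%. Aliphatic glucosinolate synthesis reaches 100% on the right, and TIR and NB-LRR immune receptors, salicylate and immune response, developmental cell death and xyloglucan endotransglucosylases extend furthest to the left.

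Phloem genes were far lower in the pith. Of 19 tested sieve element and companion cell genes (20 listed), 17 were called higher in the phloem cap and 0 higher in the pith, with a median log2 fold change of 6.62. SUC2, the sucrose symporter that loads companion cells, had 1419 and 909 CPM in the phloem cap against 41.9 and 53.03 CPM in the pith (log2 fold change 4.62 ± 0.43, adjusted p = 0.000322). PP2-A1, a phloem lectin, had 1297 and 502 CPM in the phloem cap against 5.18 and 7.85 CPM in the pith (log2 fold change 7.11 ± 0.63), and SEOa, a sieve element occlusion protein, had 764 and 676 CPM in the phloem cap against 1.42 and 6.12 CPM in the pith (log2 fold change 7.57 ± 0.76). For all 3, phloem cap replicate 1 was the higher of its pair. Both phloem cap libraries lay above both pith libraries, as they did for 6337 of the 18201 genes tested. By level SUC2 had 1064 TPM in the phloem cap, 35.6 TPM in the pith and 649 TPM in the remaining vascular bundle. How many conducting phloem cells the dissected phloem cap held was not tested.

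Genes of the cambium, the meristem between phloem and xylem, followed the same direction, with 7 of 12 tested (12 listed) called higher in the phloem cap and 0 higher in the pith. ANT, an AP2-type regulator of cambium activity, had 168 and 194 CPM in the phloem cap against 1.75 and 2.88 CPM in the pith (log2 fold change 6.29 ± 0.45, adjusted p = 0.000220), and LBD4, a LOB-domain factor of the phloem and procambium boundary, had 106 and 77.1 CPM in the phloem cap against 4.42 and 2.25 CPM in the pith (log2 fold change 4.78 ± 0.47). PXY, the receptor of the cambium peptide and named after its values were seen, did not follow them, with 481 and 363 CPM in the phloem cap against 568 and 525 CPM in the pith (log2 difference -0.37 ± 0.34). Of 25 cell cycle genes, all 25 tested, 14 were called higher in the phloem cap and 0 higher in the pith, and the median log2 fold change was 5.18. CYCD3;3, a D-type cyclin, had 48.4 and 72.5 CPM in the phloem cap against 0.764 and 2.56 CPM in the pith (log2 fold change 5.18 ± 0.62, adjusted p = 0.000951). The number of cell cycle genes called went from 6 without phloem cap replicate 2 to 16 without pith replicate 2.

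Secondary wall genes depended on which library was used. In the full comparison 6 of 30 tested genes (33 listed) were called higher in the phloem cap and 0 higher in the pith, but 20 were called higher in the phloem cap without phloem cap replicate 1, 2 without phloem cap replicate 2, 0 without pith replicate 1 and 1 without pith replicate 2. FLA12, a fasciclin-like protein of fibres, had 396 and 914 CPM in the phloem cap against 136 and 128 CPM in the pith (adjusted p = 0.00704, and 0.0415 without pith replicate 1 and 0.0440 without pith replicate 2). The higher value of phloem cap replicate 2 moved with the summed fibre markers given above, whose part in the result was not tested. Of 7 genes listed as markers of the starch sheath, the layer next to the phloem cap, 4 were called higher in the phloem cap. They include SHR, a mobile GRAS factor of the stele and so no marker of this layer alone, with 227 and 176 CPM in the phloem cap against 4.64 and 7.69 CPM in the pith (log2 fold change 5.03 ± 0.44, adjusted p = 0.000272). PIN3, an auxin efflux carrier of gravity-sensing cells, had 32.3 and 28.5 CPM in the phloem cap against 2.84 and 2.04 CPM in the pith (log2 fold change 3.64 ± 0.45). SCR, the GRAS factor that defines the layer, went the other way with 19.7 and 26.7 CPM in the pith against 3.41 and 5.299 CPM in the phloem cap (adjusted p = 0.00639, and 0.0237 without phloem cap replicate 1 and 0.0156 without pith replicate 2). The starch sheath markers summed to 277 and 247 TPM in the phloem cap against 19.95 and 28.4 TPM in the pith, mostly SHR. Of 3 tested stomatal lineage markers, FMA (FAMA), the bHLH factor of guard cells and myrosin cells, was called higher in the phloem cap with 11.5 and 8.198 CPM in the phloem cap against 0 and 0.0523 CPM in the pith (log2 fold change 8.24 ± 0.98, adjusted p = 0.000770).

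Several transcripts with high levels in the phloem cap were of other kinds. MT2B, a metallothionein, had 14499 TPM in the phloem cap, 434 TPM in the pith and 9402 TPM in the remaining vascular bundle (log2 fold change 4.76 ± 0.41). ROC1, a cyclophilin, had 2162 and 1739.9 CPM in the phloem cap against 82.9 and 60.2 CPM in the pith, and AGP31, a wall arabinogalactan protein, had 1973 and 1962 CPM in the phloem cap against 35.3 and 30.6 CPM in the pith (log2 fold change 5.90 ± 0.41, adjusted p = 0.000220). EXPA4, an expansin that loosens walls, had 818 and 644 CPM in the phloem cap against 13.4 and 20.4 CPM in the pith (log2 fold change 5.44 ± 0.44), and 3 of 11 tested expansins (14 listed) were called higher in the phloem cap, with 0 higher in the pith. Leaving out phloem cap replicate 1 or 2 gave 1 and 2 expansins higher in the pith. Among starch genes the plastid beta-amylase CT-BMY had 121 and 136 CPM in the phloem cap against 10.7 and 7.64 CPM in the pith (log2 fold change 3.81 ± 0.38, adjusted p = 0.000378). Of 28 tested members (29 listed), 2 were called higher in the phloem cap and 1 higher in the pith, the latter not without pith replicate 1. These shares, 7.14% and 3.57%, were near the 8.33% and 4.34% of all genes tested. Of 7 tested gibberellin genes (16 listed), 3 were called higher in the phloem cap. They include GA3, the ent-kaurene oxidase, with 112 and 75.9 CPM in the phloem cap against 6.93 and 14.8 CPM in the pith (log2 fold change 3.11 ± 0.47, adjusted p = 0.00215), and KAO2, the next oxidase of the pathway, with 14.1 and 11.3 CPM in the phloem cap against 0.654 and 0.628 CPM in the pith (adjusted p = 0.00130). Pectin-modifying enzymes were called higher in the phloem cap for 35 of 113 tested genes (239 listed) and higher in the pith for 4. PGA4 with 909 and 166 CPM in the phloem cap against 28.4 and 16.8 CPM in the pith (adjusted p = 0.00735, and 0.0655 without pith replicate 1 and 0.0786 without pith replicate 2) and VGD1 with 549 and 114 CPM in the phloem cap against 22.5 and 10.2 CPM in the pith (adjusted p = 0.00844, and 0.0456 without pith replicate 1 and 0.0685 without pith replicate 2) are genes of pollen, and phloem cap replicate 1 was high in these as in the summed pollen markers. What pollen RNA contributed to the count was not tested. Without pith replicate 2, 19 members were called higher in the phloem cap, and the number higher in the pith was 7 and 8 without phloem cap replicate 1 and 2. AT4G24780, a pectin lyase-like gene, was higher in phloem cap replicate 2, with 216 and 427 CPM in the phloem cap against 10.4 and 15.7 CPM in the pith (log2 fold change 4.62 ± 0.49, adjusted p = 0.000483).

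The pith held fewer calls and smaller differences, and these concerned other functions. CYP78A7 (AT5G09970, chromosome 5, positions 3111945 to 3114239), a P450 of a family known for control of organ growth, had 43.6 and 75.7 CPM in the pith against 0 and 0 CPM in the phloem cap, at least 899-fold higher in the pith when 3 counts over the group are taken as the floor. UGT76D1, a glucosyltransferase, and VSR5, a vacuolar sorting receptor, likewise had no read in the phloem cap and were at least 119-fold and 113-fold higher in the pith. ECS1, a gene of pathogen response, had 1059.7 TPM in the phloem cap, 22529 TPM in the pith and 3262 TPM in the remaining vascular bundle (log2 fold change -4.74 ± 0.51, adjusted p = 0.000511). PLAT2, a PLAT-domain protein of stress responses, had 3007 and 2118 CPM in the pith against 11.2 and 26.5 CPM in the phloem cap (log2 fold change -7.09 ± 0.60, adjusted p = 0.000262), and AT2G45180, a lipid-transfer-type protein, had 1666 and 1956 CPM in the pith against 9.04 and 18.01 CPM in the phloem cap (log2 fold change -7.06 ± 0.53, adjusted p = 0.000220). Both phloem cap libraries stood below 30 CPM for these 2 genes.

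Developmental cell death and senescence genes did not move as a group. Of 18 tested (23 listed), 4 were called higher in the pith and 2 higher in the phloem cap, and the median log2 fold change was 1.35. Without phloem cap replicate 2 or pith replicate 1, 1 was called higher in the phloem cap. GAMMA-VPE, a vacuolar processing protease of plant cell death, had 3343 and 4426 CPM in the pith against 229 and 312 CPM in the phloem cap (log2 fold change -3.84 ± 0.40, adjusted p = 0.000482). The metacaspase MC2, named after its values were seen, had 10.09 and 6.17 CPM in the pith against 0.240 and 0.0828 CPM in the phloem cap (log2 fold change -5.63 ± 0.83), while MC1 had 81.5 and 92.3 CPM in the pith against 86.4 and 62.6 CPM in the phloem cap (log2 difference -0.22 ± 0.33). On the phloem cap side was scpl48, a serine carboxypeptidase used as a marker of developmental death, with 95.8 and 168 CPM in the phloem cap against 16.1 and 21.2 CPM in the pith (log2 fold change 2.82 ± 0.41, adjusted p = 0.00184). AT4G16190, a papain-type cysteine protease outside the list, was among the highest pith transcripts with 6565 and 5619 CPM in the pith against 579.9 and 539 CPM in the phloem cap (log2 fold change -3.44 ± 0.37, adjusted p = 0.000536).

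Called immune receptors were mostly higher in the pith. Of 106 tested TIR and NB-LRR genes (186 listed), 21 were called higher in the pith, where 4.34% of all genes tested were, and 1 higher in the phloem cap. The median log2 fold change was -1.26, and 90 of the 106 were lower in the phloem cap, as were 8639 of all 18201 genes tested. With library totals, 15 were called higher in the pith and 3 higher in the phloem cap. RLM3, a TIR-domain resistance gene, had 673 and 553 CPM in the pith against 22.97 and 26.1 CPM in the phloem cap (log2 fold change -4.64 ± 0.38, adjusted p = 0.000231). SNC1 and RPP5, neighbouring paralogs on chromosome 4 whose unique counts are uncertain, had 377 and 223 CPM in the pith against 66.2 and 84.5 CPM in the phloem cap (adjusted p = 0.00693, and 0.0117 without phloem cap replicate 1 and 0.0414 without pith replicate 1) and 309 and 233 CPM in the pith against 76.03 and 74.4 CPM in the phloem cap (adjusted p = 0.00543, and 0.0321 without pith replicate 1 and 0.0111 without pith replicate 2). The number called higher in the pith was 9 without pith replicate 1, 12 without phloem cap replicate 2, 13 without phloem cap replicate 1 and 23 without pith replicate 2. Higher in the phloem cap were 2 without pith replicate 1 and 0 without either phloem cap library. W-box letters (TTGACC or TTGACT, either strand), the site of WRKY factors, occurred in 38.7% of the promoters of the 106 genes and in 27.3% of all. This was 1 of 6 motifs searched. The G-box CACGTG was found in 0.943% of the 106 promoters and in 7.46% of all, and the GCC-box GCCGCC in 5.66% and 1.99%. ACGTG was found in 16.0% and 23.0%, TATCCA in 12.3% and 14.2%, and ACCTAC in 4.72% and 4.44%. Of 20 tested salicylate and immune response genes (26 listed), 4 were called higher in the pith and 1 higher in the phloem cap. AZI1, a lipid-transfer-type protein of systemic immunity, had 27.4 and 81.1 CPM in the pith against 0.384 and 0.290 CPM in the phloem cap (log2 fold change -7.31 ± 0.72, adjusted p = 0.000439). WRKY70, a regulator of salicylate responses, had 273 and 144 CPM in the pith against 45.5 and 20.9 CPM in the phloem cap (adjusted p = 0.00669, and 0.0106 without phloem cap replicate 2 and 0.0168 without pith replicate 1). Of the list, 1 was higher in the pith without pith replicate 1 and 2 without phloem cap replicate 2, and the single call in the phloem cap held only without phloem cap replicate 1.

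Wall and lipid genes divided between the tissues by member. Among xyloglucan endotransglucosylases, which cut and rejoin xyloglucan, 4 of 16 tested (33 listed) were called higher in the pith and 3 higher in the phloem cap. XTH32 had 1077 and 1071 CPM in the pith against 26.7 and 47.2 CPM in the phloem cap (log2 fold change -4.86 ± 0.44, adjusted p = 0.000314) and XTH6 had 128 and 121 CPM in the pith against 1.83 and 4.47 CPM in the phloem cap (log2 fold change -5.30 ± 0.51). XTH4 had 1800.5 and 1098 CPM in the pith against 109.8 and 255 CPM in the phloem cap (adjusted p = 0.00398, and 0.0114 without pith replicate 1). On the phloem cap side 1 member was called once phloem cap replicate 2 or either pith library was left out. Of 40 tested arabinogalactan and fasciclin-like genes (50 listed), 9 were called higher in the phloem cap and 4 higher in the pith, where FLA2 had 1589.6 and 1799 CPM in the pith against 149 and 287 CPM in the phloem cap (log2 fold change -2.96 ± 0.43, adjusted p = 0.00189). Without phloem cap replicate 2 the numbers were 11 and 10, without phloem cap replicate 1 they were 9 and 8, without pith replicate 1 they were 7 and 2, and without pith replicate 2 they were 5 and 3. AT1G80170, a pectin lyase-like gene, had 2625 and 2886 CPM in the pith against 32.6 and 79.5 CPM in the phloem cap (log2 fold change -5.62 ± 0.55, adjusted p = 0.000376) and so ran against the pectin list as a whole. GPAT6, an acyltransferase of cutin synthesis, had 40.3 and 74.7 CPM in the pith against 1.15 and 1.53 CPM in the phloem cap (log2 fold change -5.41 ± 0.50, adjusted p = 0.000329), although the epidermis markers as a list summed to 55.2 and 239.8 TPM in the phloem cap against 44.2 and 67.1 TPM in the pith, and no other marker of the 12 tested was called, or 5 higher in the phloem cap without phloem cap replicate 1. Of 109 tested P450 genes (240 listed), 20 were called higher in the pith and 15 higher in the phloem cap, including the glucosinolate P450s. This balance was lost or turned in other fits, with 16 higher in the pith against 18 without phloem cap replicate 1, 14 against 15 without pith replicate 1, 15 against 19 with library totals, 13 against 15 with glmTreat (a test against a fold change of 2), and 22 against 22 with all 6 libraries. CYP89A9, a P450 of chlorophyll breakdown, had 692 and 596 CPM in the pith against 102 and 100.1 CPM in the phloem cap (log2 fold change -2.67 ± 0.35, adjusted p = 0.00113).

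Receptor-like kinases were called in both directions, 47 of 221 tested (365 listed) higher in the phloem cap and 18 higher in the pith. BAM3, a CLE peptide receptor of phloem development, had 312 and 225 CPM in the phloem cap against 3.87 and 3.09 CPM in the pith (log2 fold change 6.27 ± 0.43, adjusted p = 0.000220), and its relative BAM1 had 611 and 444 CPM in the phloem cap against 45.1 and 51.3 CPM in the pith (log2 fold change 3.45 ± 0.38). On the pith side MEE62, a leucine-rich repeat kinase, had 1073 and 797 CPM in the pith against 101 and 82.5 CPM in the phloem cap (log2 fold change -3.35 ± 0.38, adjusted p = 0.000660) and AT5G56040, another kinase of this kind, had 320.5 and 387 CPM in the pith against 8.12 and 14.6 CPM in the phloem cap (log2 fold change -4.96 ± 0.45). Calls were few in some processes. None of 30 photosynthesis genes, all tested by edgeR, was called, and RBCS1A, a Rubisco small subunit, had 1552 and 2849 CPM in the phloem cap against 3367 and 2228 CPM in the pith (log2 difference -0.35 ± 0.42). Leaving out pith replicate 1 called 1 photosynthesis gene higher in the phloem cap, and leaving out phloem cap replicate 2 called 1 higher in the pith. Of 250 tested ribosomal protein genes (280 listed), 2 were called higher in the phloem cap and 1 higher in the pith, with 5 higher in the phloem cap without phloem cap replicate 1, 1 with any other library left out and 3 higher in the pith without phloem cap replicate 2. Few calls did not mean even levels, since 184 of the tested ribosomal protein genes had a positive log2 fold change and 66 a negative one (median 0.435). The listed ribosomal protein genes summed to 38020 and 50180 TPM in the phloem cap against 32520 and 27570 TPM in the pith. Jasmonate synthesis and turnover had 1 of 25 tested genes (28 listed) called, higher in the phloem cap, and abscisic acid and dehydration response had 1 of 23 (25 listed) in each direction. The abscisic acid shares were 4.35% in each direction, against 8.33% and 4.34% of all genes tested. The pith share was thus near that of all genes. The numbers called in the jasmonate and abscisic acid lists changed when single libraries were left out. Class III peroxidases had 3 of 25 tested genes (70 listed) called in each direction. AT2G38380, 1 of the study's pith markers, had 46.5 and 162 CPM in the pith against 0.192 and 1.24 CPM in the phloem cap (log2 fold change -7.14 ± 0.98, adjusted p = 0.00242), and AT2G37130 had 109 and 75.7 CPM in the pith against 0.625 and 3.15 CPM in the phloem cap (adjusted p = 0.00212, and 0.0110 without pith replicate 1). Peroxidases called higher in the phloem cap numbered 6 without phloem cap replicate 1. Of 26 tested lipid transfer proteins (133 listed), 7 were called higher in the phloem cap and 1 higher in the pith, with 4 higher in the phloem cap without phloem cap replicate 2 or pith replicate 1 and 2 higher in the pith without phloem cap replicate 1 or pith replicate 2. Xylem vessel genes and flavonoid synthesis had 2 of 11 (16 listed) and 2 of 7 tested (15 listed) called higher in the phloem cap and 0 higher in the pith, and 1 each when either phloem cap library was left out.

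Transporters were called in both tissues. Of 652 listed transporter genes in 17 families, 443 were tested, 87 (19.6%) were called higher in the phloem cap and 51 (11.5%) higher in the pith, against 8.33% and 4.34% of all genes tested.

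**Figure D3:**
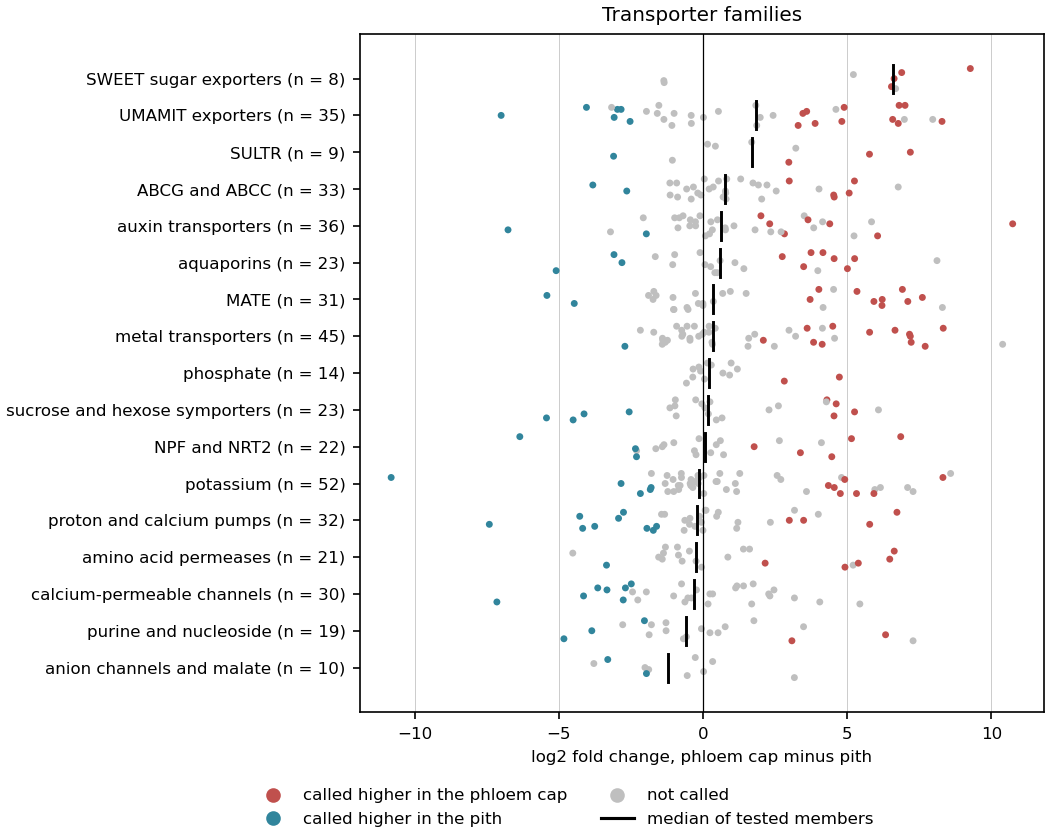
Log2 fold change (phloem cap minus pith) of every tested member of the 17 transporter families, with members called higher in the phloem cap in red, higher in the pith in blue and not called in grey. Black bars mark the family medians, which run from 6.58 for the SWEET sugar exporters to -1.22 for anion channels and malate.

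Sugar transport was divided. Of 23 tested sucrose and hexose symporters (35 listed), 4 were called in each direction. Besides SUC2, the phloem cap had more of INT4, an inositol symporter, with 139 and 114 CPM in the phloem cap against 3.27 and 3.35 CPM in the pith (log2 fold change 5.25 ± 0.39, adjusted p = 0.000220). The pith had more of ERD6, a sugar transporter induced by drought, with 315 and 246 CPM in the pith against 16.4 and 15.6 CPM in the phloem cap (log2 fold change -4.13 ± 0.37, adjusted p = 0.000294), of STP7, a hexose transporter of the plasma membrane, with 109 and 153 CPM in the pith against 3.75 and 7.74 CPM in the phloem cap (log2 fold change -4.51 ± 0.48), and of TMT1, which loads sugars into the vacuole, with 48.3 and 82.5 CPM in the pith against 9.804 and 12.3 CPM in the phloem cap (log2 fold change -2.56 ± 0.41). Of 8 tested SWEET exporters (17 listed), 4 were called higher in the phloem cap. SWEET12, which releases sucrose for phloem loading, had 54.2 and 11.5 CPM in the phloem cap against 0.491 and 0.209 CPM in the pith (adjusted p = 0.00268, and 0.0331 without pith replicate 1 and 0.0424 without pith replicate 2). Without either pith library 1 SWEET gene was called, and without phloem cap replicate 1, 2 were. Vacuolar SWEET17, named after its values were seen, had 320.3 and 509.6 CPM in the pith against 142 and 181 CPM in the phloem cap (adjusted p = 0.0272).

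Amino acid carriers were called more often on the phloem cap side, but the permeases did not lean that way as a list. Of the 21 permeases tested, 9 had a positive log2 fold change and 12 a negative one, with a median of -0.244. AAP2, an amino acid permease of the phloem, had 5628 and 3245 CPM in the phloem cap against 43.1 and 56.6 CPM in the pith (log2 fold change 6.47 ± 0.50, adjusted p = 0.000220), and by level 3542 TPM in the phloem cap, 32.8 TPM in the pith and 2035 TPM in the remaining vascular bundle. AAP7 had 1899.7 and 844 CPM in the phloem cap against 14.6 and 13.1 CPM in the pith (log2 fold change 6.63 ± 0.55). Of 21 tested permeases (26 listed), 5 were called higher in the phloem cap and 1 higher in the pith, the cationic amino acid transporter CAT3, with 268 and 327 CPM in the pith against 35.04 and 23.3 CPM in the phloem cap (log2 fold change -3.35 ± 0.39, adjusted p = 0.000702). Without either phloem cap library 3 permeases were called higher in the pith, and without pith replicate 2, 2 were. UMAMIT exporters had 11 of 35 tested members (44 listed) called higher in the phloem cap and 6 higher in the pith. These shares were 31.4% and 17.1%, against 8.33% and 4.34% of all genes tested. WAT1, a vacuolar auxin exporter needed for fibre walls, had 3597 and 4980.0 CPM in the phloem cap against 237 and 344 CPM in the pith (log2 fold change 3.89 ± 0.42, adjusted p = 0.000529), and UMAMIT28, an amino acid exporter, had 231 and 182 CPM in the phloem cap against 0.491 and 3.19 CPM in the pith (log2 fold change 6.80 ± 0.83). On the pith side UMAMIT38 had 731 and 635 CPM in the pith against 88.4 and 72.5 CPM in the phloem cap (log2 fold change -3.08 ± 0.36, adjusted p = 0.000726) and UMAMIT44 had 345 and 302 CPM in the pith against 57.8 and 32.4 CPM in the phloem cap (log2 fold change -2.84 ± 0.40).

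Nitrate and peptide carriers of the NPF and NRT2 families were called higher in the phloem cap for 5 of 22 tested genes (39 listed) and higher in the pith for 3, of which 0 were called without pith replicate 2. NRT1:2, an importer of nitrate and abscisic acid, had 169 and 96.2 CPM in the phloem cap against 4.74 and 2.72 CPM in the pith (log2 fold change 5.15 ± 0.49, adjusted p = 0.000345), and NRT1.5, which loads nitrate into the xylem in roots, had 179.8 and 337 CPM in the phloem cap against 7.199 and 16.2 CPM in the pith (log2 fold change 4.46 ± 0.55). The dual-affinity nitrate transporter NRT1.1 was higher in the pith, with 56.7 and 160.3 CPM in the pith against 0.144 and 2.44 CPM in the phloem cap (adjusted p = 0.00639, and 0.0304 without pith replicate 1 and 0.0549 without pith replicate 2). The glucosinolate importers GTR1 and GTR2, named after their values were seen, did not follow the synthesis genes. GTR1 had 16.9 and 20.8 CPM in the phloem cap against 12.5 and 10.5 CPM in the pith (log2 difference 0.71 ± 0.40) and GTR2 had 102 and 57.3 CPM in the phloem cap against 63.2 and 53.1 CPM in the pith (log2 difference 0.46 ± 0.38), so that a log2 difference of 1 lay within 2 SE of both. Of 9 tested sulfate transporters (12 listed), 3 were called higher in the phloem cap and 1 higher in the pith. SULTR2;1, a vascular sulfate carrier, had 324 and 132 CPM in the phloem cap against 0.382 and 2.72 CPM in the pith (log2 fold change 7.19 ± 0.96, adjusted p = 0.00215), and SULTR4;2, which exports sulfate from vacuoles, had 40.03 and 23.6 CPM in the phloem cap against 3.33 and 4.76 CPM in the pith (log2 fold change 2.97 ± 0.47). AST56, a further sulfate carrier, had 29.1 and 26.7 CPM in the pith against 4.09 and 2.401 CPM in the phloem cap (log2 fold change -3.10 ± 0.46). Of 14 tested phosphate transporters (24 listed), 2 were called, and 1 without phloem cap replicate 2 or pith replicate 1. The exporter PHO1;H1 had 44.3 and 35.4 CPM in the phloem cap against 1.800 and 1.203 CPM in the pith (log2 fold change 4.73 ± 0.47, adjusted p = 0.000376).

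Calcium enters the cytosol through channels and is removed by pumps and exchangers. Of 30 tested calcium-permeable channels (43 listed), 7 were called higher in the pith and 0 higher in the phloem cap, where 1 was called without phloem cap replicate 1, 2 without pith replicate 2, 3 with library totals or the filter of 10 CPM, and 4 with DESeq2. DND1, a cyclic nucleotide-gated channel of immune signalling, had 291 and 552 CPM in the pith against 33.02 and 50.5 CPM in the phloem cap (log2 fold change -3.33 ± 0.45, adjusted p = 0.00141). Its partner CNGC4 had 70.8 and 95.8 CPM in the pith against 0.0481 and 1.08 CPM in the phloem cap (adjusted p = 0.00210, and 0.0196 without pith replicate 1 and 0.0233 without pith replicate 2), and CNGC12 had 74.7 and 53.4 CPM in the pith against 9.901 and 12.9 CPM in the phloem cap (log2 fold change -2.49 ± 0.38). Of 32 tested proton and calcium pumps and exchangers (38 listed), 9 were called higher in the pith and 4 higher in the phloem cap. CAX1 (AT2G38170, chromosome 2, positions 15989083 to 15993326), which moves calcium into the vacuole in exchange for protons, had 3820.4 and 5470.4 CPM in the pith against 14.9 and 39.5 CPM in the phloem cap (log2 fold change -7.42 ± 0.65, adjusted p = 0.000312). It was also far below the pith in the remaining bundle, with 15.5 TPM in the phloem cap, 2111 TPM in the pith and 41.2 TPM in the remaining vascular bundle. ACA10, a calcium pump, had 1376 and 1009 CPM in the pith against 59.3 and 63.6 CPM in the phloem cap (log2 fold change -4.28 ± 0.39, adjusted p = 0.000314), whereas its relative ACA8 was higher in the phloem cap, with 142 and 118 CPM in the phloem cap against 11.7 and 20.9 CPM in the pith (log2 fold change 2.99 ± 0.40). Without either pith library, 5 pumps and exchangers were higher in the pith and 3 higher in the phloem cap. The balance turned without phloem cap replicate 2, with 5 higher in the pith against 6, and with library totals, with 5 against 7. HA3, a plasma membrane proton pump of companion cells, had 249 and 138 CPM in the phloem cap against 0.764 and 2.88 CPM in the pith (log2 fold change 6.72 ± 0.72).

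**Figure D4:**
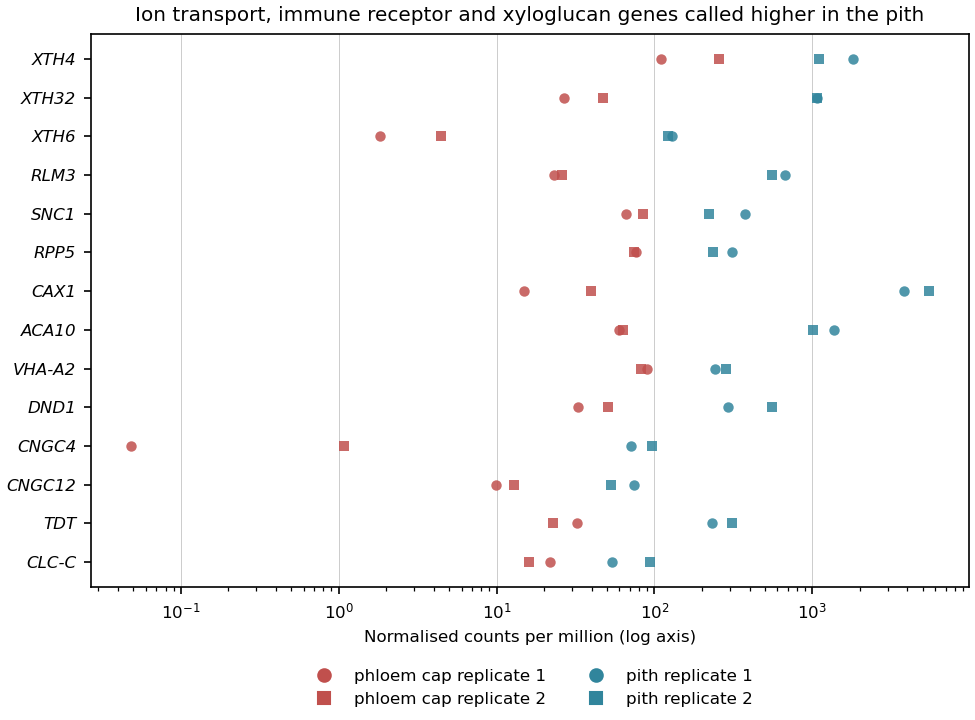
Normalised CPM (log axis) of 14 xyloglucan, immune receptor and ion transport genes called higher in the pith, one point per library, with phloem cap in red and pith in blue and replicates 1 and 2 as circles and squares. The blue points lie to the right of the red points in each row, as they would for 5466 of the 18201 genes tested. CAX1 stands at 3820.4 and 5470.4 CPM in the pith against 14.9 and 39.5 CPM in the phloem cap.

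Potassium and anion carriers were called in smaller numbers. Of 52 tested potassium and cation exchanger genes (67 listed), 7 were called higher in the phloem cap and 5 higher in the pith. These shares were 13.5% and 9.6%, against 8.33% and 4.34% of all genes tested. NHX4, a vacuolar sodium and potassium exchanger, had 228 and 212 CPM in the phloem cap against 6.98 and 7.58 CPM in the pith (log2 fold change 4.91 ± 0.37, adjusted p = 0.000220). On the pith side CHX17, a cation/H+ exchanger, had 11.7 and 10.2 CPM in the pith against 0 and 0 CPM in the phloem cap, at least 164-fold higher, and the channel KT2/3 (AKT2), known from phloem, had 74.9 and 78.4 CPM in the pith against 17.3 and 16.6 CPM in the phloem cap (log2 fold change -2.18 ± 0.33, adjusted p = 0.00236). Without phloem cap replicate 1 or pith replicate 1, 3 members were called higher in the phloem cap, and without phloem cap replicate 2, 2 were called higher in the pith, and without phloem cap replicate 1 or pith replicate 2, 3 were. TDT, the malate carrier of the vacuole, had 232 and 310.5 CPM in the pith against 32.2 and 22.6 CPM in the phloem cap (log2 fold change -3.31 ± 0.38, adjusted p = 0.000723) and was 1 of 2 called among 10 tested anion and malate carriers (16 listed). Leaving out pith replicate 1 gave 4 calls there and leaving out pith replicate 2 gave 1.

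Water channels of 1 subfamily were called in opposite directions. Of 23 tested aquaporins (35 listed), 7 were called higher in the phloem cap and 3 higher in the pith. PIP1;5, a plasma membrane aquaporin, was higher in the pith, with 4109.7 and 7036 CPM in the pith against 467 and 842 CPM in the phloem cap (log2 fold change -3.09 ± 0.47, adjusted p = 0.00226), and PIP2E had 518 and 642 CPM in the pith against 9.13 and 24.7 CPM in the phloem cap (log2 fold change -5.10 ± 0.56). TIP2;2, of the vacuole membrane, had 79.7 and 141 CPM in the pith against 9.66 and 21.6 CPM in the phloem cap (log2 fold change -2.81 ± 0.50). PIP3 and PIP1C are also aquaporins of the plasma membrane. PIP3 had 705 and 1279 CPM in the phloem cap against 25.6 and 36.1 CPM in the pith (log2 fold change 5.01 ± 0.48, adjusted p = 0.000334), and PIP1C had 340.2 and 558 CPM in the phloem cap against 26.6 and 40.5 CPM in the pith (log2 fold change 3.74 ± 0.43). By level PIP1;5 had 860.4 TPM in the phloem cap, 5886 TPM in the pith and 2131 TPM in the remaining vascular bundle, and PIP3 had 1165 TPM in the phloem cap, 29.1 TPM in the pith and 558 TPM in the remaining vascular bundle.

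Metal carriers were mostly on the phloem cap side, with 12 of 45 tested (61 listed) called higher in that tissue and 1 higher in the pith. ZIP1, a zinc transporter, had 261 and 181 CPM in the phloem cap against 0.982 and 2.09 CPM in the pith (log2 fold change 7.16 ± 0.54, adjusted p = 0.000220), and NRAMP1, a manganese and iron transporter, had 99.5 and 60.3 CPM in the phloem cap against 0.218 and 0.837 CPM in the pith (log2 fold change 7.22 ± 0.66). The single call in the pith was OPT7, an oligopeptide transporter, with 307 and 453 CPM in the pith against 50.2 and 65.7 CPM in the phloem cap (log2 fold change -2.71 ± 0.38, adjusted p = 0.00160), and 2 were called there without phloem cap replicate 2. MATE exporters had 9 of 31 tested (56 listed) called higher in the phloem cap and 2 higher in the pith, where AT2G04100 had 35.9 and 26.6 CPM in the pith against 1.01 and 0.455 CPM in the phloem cap (log2 fold change -5.42 ± 0.57, adjusted p = 0.000475), and without phloem cap replicate 1, 4 were called there. ABC transporters of the G and C groups had 5 and 2 of 33 tested (59 listed), with ABCC4 at 27.6 and 31.1 CPM in the phloem cap against 4.25 and 3.14 CPM in the pith (log2 fold change 2.99 ± 0.43) and ABCG5 at 25.6 and 23.8 CPM in the pith against 1.11 and 2.36 CPM in the phloem cap (log2 fold change -3.82 ± 0.53). Of 36 tested auxin transporters (47 listed, ABCB and PILS genes included), 7 were called higher in the phloem cap and 2 higher in the pith. EIR1 (PIN2), known from root gravitropism, had 7.64 and 13.1 CPM in the pith against 0.0961 and 0.0828 CPM in the phloem cap (log2 fold change -6.77 ± 0.78, adjusted p = 0.000711), and PIN5, an auxin carrier of the endoplasmic reticulum and without reads in the pith, was higher in the phloem cap by at least 126-fold. Without pith replicate 1, 3 auxin transporters were called higher in the phloem cap, and 4 without phloem cap replicate 2 or pith replicate 2. A single auxin carrier was called higher in the pith without phloem cap replicate 1. Of 19 tested purine, nucleoside and urea carriers (33 listed), 2 were called higher in the phloem cap, or 1 without either pith library, and 3 higher in the pith. DUR3, a urea symporter, had 118 and 189 CPM in the pith against 7.59 and 13.5 CPM in the phloem cap (log2 fold change -3.86 ± 0.45, adjusted p = 0.000742).

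Transcription factors were called mostly in the phloem cap. Of 1344 listed in 19 families, 767 were tested, 109 (14.2%) were called higher in the phloem cap and 40 (5.22%) higher in the pith, against 8.33% and 4.34% of all genes tested. Their median log2 fold change was 0.56. Among these families the DOF factors had the largest share called in the phloem cap, with 15 of 25 tested (36 listed) called there, 0 in the pith and a median log2 fold change of 4.84. DOF factors are plant zinc finger proteins, several of which act in phloem and vascular development. TMO6, a DOF factor activated by auxin signalling, had 391 and 235 CPM in the phloem cap against 3.22 and 9.52 CPM in the pith (log2 fold change 5.62 ± 0.63, adjusted p = 0.000846), and AT2G28810 had 363 and 157 CPM in the phloem cap against 6.599 and 4.45 CPM in the pith (log2 fold change 5.56 ± 0.55). Leaving out each library in turn gave 14 to 17 DOF genes higher in the phloem cap and up to 1 higher in the pith.

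**Figure D5:**
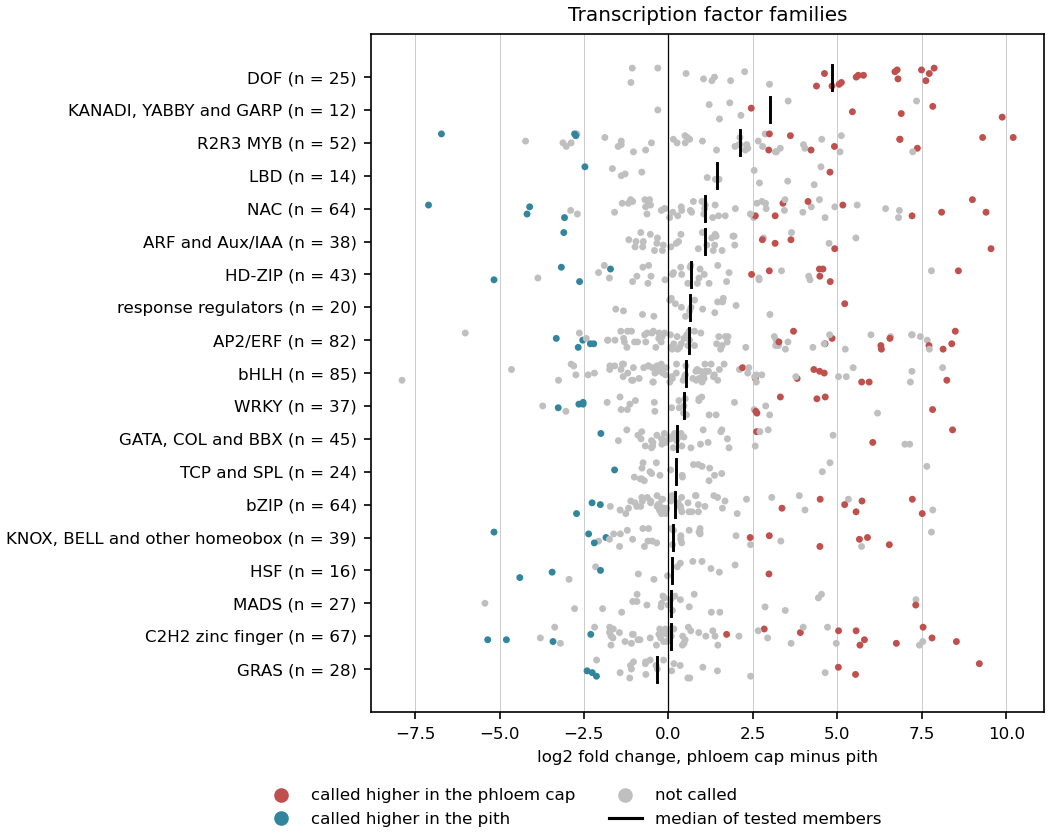
Log2 fold change (phloem cap minus pith) of every tested member of the 19 transcription factor families, with members called higher in the phloem cap in red, higher in the pith in blue and not called in grey. Black bars mark the family medians, which run from 4.84 for DOF to -0.35 for GRAS.

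MYB factors included the regulators of aliphatic glucosinolates. MYB28 had 117 and 83.4 CPM in the phloem cap against 5.18 and 5.54 CPM in the pith (log2 fold change 4.22 ± 0.39, adjusted p = 0.000316), and MYB29 had 99.6 and 108 CPM in the phloem cap against 12.7 and 4.39 CPM in the pith (log2 fold change 3.61 ± 0.53), so both lay on the same side as the enzymes they are known to activate. Of 52 tested R2R3 MYB genes (126 listed), 10 were called higher in the phloem cap and 3 higher in the pith. FLP, which limits stomatal divisions, had 17.2 and 14.9 CPM in the phloem cap against 0.109 and 0.157 CPM in the pith (log2 fold change 6.85 ± 0.65), and on the pith side MYB6 had 30.7 and 28.97 CPM in the pith against 3.41 and 5.26 CPM in the phloem cap (log2 fold change -2.78 ± 0.43). The MYB numbers were 6 higher in the phloem cap without phloem cap replicate 2 and 1 higher in the pith without phloem cap replicate 1. Of the KANADI, YABBY and GARP group, 5 of 12 tested (20 listed) were called higher in the phloem cap and 0 higher in the pith. Among them was GLK2, an activator of chloroplast genes, with 56.6 and 70.8 CPM in the phloem cap against 9.87 and 13.4 CPM in the pith (adjusted p = 0.00227, and 0.0127 without pith replicate 1). APL, the MYB-like switch to phloem identity, had 46.5 and 52.4 CPM in the phloem cap against 0.0545 and 0.366 CPM in the pith (log2 fold change 7.82 ± 0.68, adjusted p = 0.000278). The family had 7 calls without pith replicate 2, 2 calls without phloem cap replicate 2 and 3 without phloem cap replicate 1 or pith replicate 1.

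HD-ZIP factors set close relatives against each other. Of 43 tested (67 listed), 7 were called higher in the phloem cap and 4 higher in the pith. The list was matched by symbol and also held zinc finger homeodomain genes such as HB25, called higher in the pith. Such genes are counted again among the other homeobox genes below, so these are not counts of HD-ZIP genes alone. Within class III, which patterns vascular tissue, HB-8 had 149 and 213 CPM in the phloem cap against 3.55 and 9.52 CPM in the pith (log2 fold change 4.79 ± 0.55, adjusted p = 0.000825) and PHB had 84.3 and 101 CPM in the phloem cap against 2.89 and 5.49 CPM in the pith (log2 fold change 4.47 ± 0.45). ATHB-15 (CORONA) had 1368 and 1577 CPM in the pith against 191 and 284 CPM in the phloem cap (log2 fold change -2.63 ± 0.38, adjusted p = 0.00183). By level ATHB-15 had 112 TPM in the phloem cap, 559 TPM in the pith and 130.0 TPM in the remaining vascular bundle. PHV, of the same class, had 126 and 123.2 CPM in the pith against 30.9 and 45.00 CPM in the phloem cap (adjusted p = 0.00826, and 0.0192 without phloem cap replicate 1 and 0.0257 without pith replicate 1 and 0.0222 without pith replicate 2). HAT2, a class II factor of auxin and shade responses, had 593 and 265 CPM in the phloem cap against 14.9 and 21.2 CPM in the pith (log2 fold change 4.57 ± 0.51). Fewer genes of the HD-ZIP list were called higher in the pith when pith replicate 1 was left out. Other homeobox genes were called in both directions, 6 and 4 of 39 tested (57 listed), with the zinc finger homeodomain genes HB30 and HB27 in the phloem cap, at 62.00 and 44.01 CPM in the phloem cap against 7.64 and 5.75 CPM in the pith (log2 fold change 2.98 ± 0.40) and 53.9 and 27.4 CPM in the phloem cap against 1.69 and 1.94 CPM in the pith (log2 fold change 4.48 ± 0.51). BEL1, a BELL factor, had 43.1 and 50.4 CPM in the pith against 6.97 and 11.2 CPM in the phloem cap (log2 fold change -2.36 ± 0.40, adjusted p = 0.00372), and the meristem gene STM had 189.8 and 202 CPM in the pith against 45.6 and 63.1 CPM in the phloem cap (adjusted p = 0.00566, and 0.0155 without pith replicate 1 and 0.0194 without pith replicate 2). Without pith replicate 1, 2 of these homeobox genes were called higher in the pith.

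Among NAC factors, 9 of 64 tested (104 listed) were called higher in the phloem cap and 4 higher in the pith. These shares were 14.1% and 6.25%, against 8.33% and 4.34% of all genes tested. NAC028 had 12.1 and 13.2 CPM in the phloem cap against 0 and 0.157 CPM in the pith (log2 fold change 7.21 ± 0.92, adjusted p = 0.00107). On the pith side, besides NAC074, were NAC016, a senescence regulator, with 23.02 and 10.8 CPM in the pith against 0.721 and 1.12 CPM in the phloem cap (log2 fold change -4.19 ± 0.62, adjusted p = 0.00202), and NAC1, a factor of auxin signalling in roots, with 21.5 and 32.01 CPM in the pith against 2.595 and 3.73 CPM in the phloem cap (log2 fold change -3.08 ± 0.47). Leaving out phloem cap replicate 1 or 2 gave 5 and 4 NAC genes higher in the phloem cap. WRKY factors had 6 of 37 tested (70 listed) called higher in the phloem cap and 4 higher in the pith, shares of 16.2% and 10.8%. WRKY35 was nearly absent from the pith, with 15.8 and 10.97 CPM in the phloem cap against 0.0545 and 0.0523 CPM in the pith (log2 fold change 7.82 ± 0.77, adjusted p = 0.000375), and WRKY33, a defence regulator, had 32.3 and 25.3 CPM in the pith against 5.53 and 4.47 CPM in the phloem cap (adjusted p = 0.00325, and 0.0125 without phloem cap replicate 2). The number of WRKY genes called higher in the pith was 1 without pith replicate 1 or phloem cap replicate 2. The number higher in the phloem cap was 3 without phloem cap replicate 1.

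Zinc finger, bZIP and GRAS genes gave further pairs. Of 64 tested bZIP genes (82 listed), 7 were called higher in the phloem cap and 3 higher in the pith. These shares, 10.9% and 4.69%, were near the 8.33% and 4.34% of all genes tested. BZIP9, known from phloem, had 104.5 and 130.0 CPM in the phloem cap against 0.327 and 0.941 CPM in the pith (log2 fold change 7.51 ± 0.57, adjusted p = 0.000220), and GBF6, whose translation sucrose represses, had 124 and 174 CPM in the phloem cap against 9.38 and 19.6 CPM in the pith (log2 fold change 3.36 ± 0.46). On the pith side bZIP52 had 35.8 and 34.5 CPM in the pith against 3.94 and 6.71 CPM in the phloem cap (log2 fold change -2.72 ± 0.43, adjusted p = 0.00278). The bZIP calls came to 4 higher in the phloem cap without phloem cap replicate 1 and to 1 higher in the pith without pith replicate 1. Among C2H2 zinc fingers, 11 of 67 tested (121 listed) were called higher in the phloem cap and 4 higher in the pith. Their shares were 16.4% and 5.97%, against the same 8.33% and 4.34%. Of the indeterminate-domain proteins, partners of GRAS factors, NUC had 57.00 and 40.5 CPM in the phloem cap against 0.109 and 0.314 CPM in the pith (log2 fold change 7.80 ± 0.61, adjusted p = 0.000220) and MGP had 11.01 and 10.97 CPM in the phloem cap against 0 and 0.105 CPM in the pith (log2 fold change 7.54 ± 0.94), while IDD7 had 317 and 376 CPM in the pith against 8.51 and 16.4 CPM in the phloem cap (log2 fold change -4.80 ± 0.46, adjusted p = 0.000342). Without either phloem cap library 5 zinc fingers were called higher in the phloem cap. In the GRAS family, 3 of 28 tested (35 listed) were called in each direction, and 1 higher in the pith without pith replicate 2. HAM4, a HAIRY MERISTEM factor, had 29.6 and 25.1 CPM in the phloem cap against 0.273 and 0.889 CPM in the pith (log2 fold change 5.54 ± 0.63), and RGL1, a DELLA repressor of gibberellin responses, had 111 and 116 CPM in the pith against 30.04 and 21.9 CPM in the phloem cap (log2 fold change -2.13 ± 0.35, adjusted p = 0.00296).

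Hormone-response factors followed similar lines. Of 38 tested ARF and Aux/IAA genes (52 listed), 5 were called higher in the phloem cap and 1 higher in the pith. ETT, an auxin response factor, had 306 and 260.5 CPM in the phloem cap against 35.6 and 27.9 CPM in the pith (log2 fold change 3.16 ± 0.36, adjusted p = 0.000676), and IAA2 had 89.7 and 42.4 CPM in the phloem cap against 5.94 and 4.76 CPM in the pith (log2 fold change 3.62 ± 0.47). IAA7, an auxin response repressor, was the call in the pith, with 298 and 267 CPM in the pith against 24.5 and 41.5 CPM in the phloem cap (log2 fold change -3.10 ± 0.40, adjusted p = 0.00106). Of 20 tested response regulators (33 listed), 1 was called, the cytokinin response activator ARR11, with 9.61 and 10.6 CPM in the phloem cap against 0.164 and 0.366 CPM in the pith (log2 fold change 5.22 ± 0.71, adjusted p = 0.00138), with 1 more, higher in the pith, when phloem cap replicate 1 was left out. Of 82 tested AP2/ERF genes (142 listed), 11 were called higher in the phloem cap, with ANT, and 5 higher in the pith, with AT1G22190, which had 734 and 381 CPM in the pith against 118 and 74.4 CPM in the phloem cap (adjusted p = 0.00444, and 0.0185 without pith replicate 1). Without phloem cap replicate 1 the AP2/ERF numbers were 7 and 9, without phloem cap replicate 2 they were 7 and 5, and without pith replicate 1 they were 10 and 3. Of 85 tested bHLH genes (161 listed), 9 were called higher in the phloem cap and 0 higher in the pith, and 1 was called higher in the pith when phloem cap replicate 1, phloem cap replicate 2 or pith replicate 1 was left out. The bHLH share called higher in the phloem cap was 10.6%, near the 8.33% of all genes tested. The AP2/ERF shares were 13.4% higher in the phloem cap and 6.10% higher in the pith, against 8.33% and 4.34%. LBD38, a LOB-domain factor of nitrogen responses, had 79.8 and 59.5 CPM in the pith against 10.4 and 14.7 CPM in the phloem cap (log2 fold change -2.47 ± 0.38, adjusted p = 0.00237), and HSFB2A, a heat shock factor, had 17.6 and 17.00 CPM in the pith against 1.298 and 1.86 CPM in the phloem cap (log2 fold change -3.44 ± 0.50). GATA20 had 25.7 and 14.7 CPM in the phloem cap against 0.0545 and 0.0523 CPM in the pith (log2 fold change 8.41 ± 0.75, adjusted p = 0.000293). Its list, GATA, COL and BBX, had 6.67% of tested members called higher in the phloem cap and 2.22% higher in the pith. Both shares lay below the 8.33% and 4.34% of all genes tested. Of the lists below, LBD genes had 7.14% called in each direction and MADS genes 3.70% higher in the phloem cap. TCP and SPL genes had 4.17% higher in the pith, near the share of all genes. Of 45 tested GATA, COL and BBX genes (60 listed), 3 were called higher in the phloem cap and 1 higher in the pith, where 0 were called without either pith library. The calls in the phloem cap came to 1 without phloem cap replicate 1. LBD genes had 1 of 14 tested (42 listed) called in each direction, with 2 higher in the pith without phloem cap replicate 1. Heat shock factors had 1 of 16 (21 listed) higher in the phloem cap, lost without phloem cap replicate 2, and 3 higher in the pith, with 1 left without pith replicate 1. MADS genes had 1 of 27 (98 listed) higher in the phloem cap, 0 without phloem cap replicate 1 and 2 without phloem cap replicate 2. TCP and SPL genes had 1 of 24 (38 listed) higher in the pith, which was lost with any library left out.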

How the data were processed

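Total RNA from laser-dissected tissue was amplified, selected with oligo(dT) and sequenced as single-end reads. Per the study's methods and the labels, the authors mapped untrimmed reads to TAIR10 with STAR 2.5.0a, kept unique alignments and counted them in R 3.5.0 per Araport11 gene, introns included and strand ignored. They deposited raw counts for the 6 libraries, with 19324189 to 21708240 counts in the 4 used here. All columns matched a sample label (0 left out). Since unique alignments were counted, near-identical genes are uncertain.

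Genes were filtered with filterByExpr and tested between 2 phloem cap and 2 pith libraries with TMM normalisation and the robust quasi-likelihood test of edgeR 4.0.16 in R 4.3.3 (Benjamini-Hochberg adjusted p below 0.01, fold change above 2). The SE was taken from the fold change and its F statistic. TPM was computed from the counts with gene widths including introns. In simulated data of 18201 genes for this contrast, 100 genes were changed 2.83-fold and 100 were changed 8-fold, all above a minimum mean count. Of these, 10% and 84% were called in the right direction, and 7 unchanged genes were called, so the smaller change was mostly missed there. In the measured data 2307 genes were called, so the adjusted p threshold acts differently and these shares cannot be carried over to it directly.

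Families came from gene lists and annotation terms. Members and lists were chosen with earlier results of these data known. Genes were named by rule: the 10 largest changes per direction with a mean of at least 100 counts in the higher tissue, the 10 highest TPM per direction, up to 3 members per list and direction with the highest mean CPM, and the study's markers, of which not all are printed. Exceptions are said to have been named after their values were seen. A gene at 0 in a tissue has its fold as a bound from 3 counts over that tissue. Coordinates and promoters are from the RefSeq annotation of TAIR10.1 (1-based), matched by gene ID, whose nuclear chromosomes are those of TAIR10. Alternatives were DESeq2 1.42.0 and its size factors, library totals, other filters, all 6 libraries, glmTreat, adjusted p below 0.05 and leaving out each library, and list counts without each library were added after seeing the data.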

Additional observations from a re-analysis of the deposited data

How the results depend on the processing

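No call of a named gene was reversed under any alternative. Against 1517 genes higher in the phloem cap and 790 higher in the pith, DESeq2 called 2583 and 1509, and an adjusted p below 0.05 called 3001 and 1779. In the pith, 1341 genes were called with no filter beyond 1 count and 422 when glmTreat tested against a fold change of 2. With no filter 2220 genes were called higher in the phloem cap. Of the transcription factors, 149 were called in the main test, 247 by DESeq2, 227 with no filter beyond 1 count and 305 at an adjusted p below 0.05, and of the transporters, 138, 208, 178 and 222 (the cause was not tested). Leaving out each library in turn gave 1172 to 1432 genes higher in the phloem cap, 563 to 785 higher in the pith, 118 to 153 transcription factors and 116 to 127 transporters, where the lone library of a tissue is assumed to vary like the other tissue. Requiring at least 10 CPM in 2 libraries shifted all log2 fold changes by a median of 0.14 and called 1128 and 660 genes. Of 300 named genes with a value, 223 were on the same side of the threshold without pith replicate 1, 236 without pith replicate 2, 262 without phloem cap replicate 2 and 268 without phloem cap replicate 1. No paired analysis was possible because the labels do not say which phloem cap and pith libraries came from the same stems. With 2 libraries per tissue, 6778 genes had an unadjusted p below 0.05, far more than were called. In the simulation most genes changed 2.83-fold were missed, and how many smaller differences the measured data miss is not known.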

Other observations

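Genes that do not code for proteins were called less often than the 12.8% of the 17777 tested protein-coding genes, without a test of the difference. Of 3480 annotated lncRNA genes 112 were tested, and 3 were called higher in the phloem cap and 4 higher in the pith. Of 112 tested pseudogenes 1 was called higher in the phloem cap and 5 higher in the pith, and of 103 transcribed pseudogenes 5 in each direction. Unique alignments were counted without strand, so that reads of pseudogenes and antisense genes cannot be told apart from those of their relatives or partners.

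The libraries also differed in how counts were spread over genes. Genes with at least 1 count numbered 20567 and 21018 for the phloem cap against 18481 and 19325 for the pith, and the 100 genes with the most counts took 20.6% and 19.9% of the phloem cap libraries against 25.6% and 25.5% of the pith libraries. Between the libraries of a tissue, 2569 genes differed by more than 2-fold for the phloem cap and 1933 for the pith. What part these differences had in the larger number of calls in the phloem cap was not tested.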
